A study of Arabidopsis thaliana with 27 samples.

Results

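At ambient CO2, 70 of 22746 Arabidopsis probe sets were strongly higher in rosettes of GO5 plants and stayed near the wild-type level in cat2 plants. Members were chosen by measured values. A probe set belonged to this module when, after 8 h at ambient CO2, the group-mean log2 signal was at least 2 higher in GO5 than in WT and less than 0.5 higher in cat2 than in WT. Both thresholds were met by 75 probe sets, and 5 of these were left out by name or as UGT glycosyltransferase genes. The annotation paired 33 members with 1 gene each and 1 with several genes, and 36 members are given by their probe set ID.

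Photorespiration begins when RuBisCO fixes oxygen in place of CO2, and it makes glycolate. Glycolate oxidase, normally a peroxisomal enzyme, turns glycolate into glyoxylate and hydrogen peroxide, and catalase then removes the peroxide. High CO2 suppresses this route, so a move to ambient CO2 raises the supply of glycolate.

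RNA was measured in 27 samples on ATH1-type arrays. GO5 plants express glycolate oxidase in the chloroplast, cat2 plants are the catalase-deficient line cat2-2, and WT is Columbia-0. Each line contributed rosettes harvested 8 h after a move to ambient CO2 (380 ppm), rosettes kept at high CO2 (3000 ppm) and harvested at the same 8 h, and rosettes taken at 0 h, still at 3000 ppm. All 9 groups were raised at 3000 ppm for 3 weeks with a photoperiod of 16 h and a photon flux of 75 µmol per square metre and second, and each held 3 biological replicates of 2 pooled rosettes. The levels of catalase 2 and glycolate oxidase were not checked here, because no probe set was paired with those genes. GO5 and cat2 were each represented by 1 line, and the promoter of the GO5 transgene was not given in the sources used here. In whole rosettes, fewer cells of a type and less RNA per cell cannot be told apart.

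Array medians lay between 5.28 and 5.52 log2 units, and mean correlations with the other arrays of the same group were 0.969 to 0.989 at ambient CO2 and 0.983 to 0.994 at high CO2. The lowest value belonged to WT ambient replicate 1, and without that array the rule gave 66 probe sets, 53 of them among the 70. The 3′ minus 5′ difference of the GAPDH control probe sets, a measure of RNA integrity, averaged 1.49 in GO5 and 2.12 in WT at ambient CO2 (exact two-sided permutation p = 0.1, the smallest that 3 against 3 arrays allow), and its part in the results was not tested. Of the tissue markers, none of the leaf mesophyll, flower or senescing-leaf genes was paired with a probe set, so the rosette label could not be checked against them. The root hair expansin EXPA7 read 2.49 in GO5, 2.71 in cat2 and 2.68 in WT at ambient CO2, near the background.

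The members were selected on these ambient values, so the values are described without a test, and nothing is read from the shares of all probe sets set beside them. The GO5 minus WT difference at ambient CO2 had a median of 2.44 and ran from 2.00 to 4.99 over the 70 members, against a median of -0.06 over all probe sets. The cat2 minus WT difference had a median of 0.17 and ran from -0.43 to 0.49. The median member read 7.29 in GO5, 4.40 in cat2 and 4.27 in WT. In WT at ambient CO2, 30 members averaged under 4. All 3 GO5 arrays lay above all 3 WT arrays for 69 members (10.3% of all probe sets did so) and below them for 0 (14.8%). They lay above all 3 cat2 arrays for 68 (12.0% of all probe sets) and below them for 0 (11.4%). The exceptions were AT5G24240 in both comparisons and AT3G01830 against cat2.

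**Figure D1:**
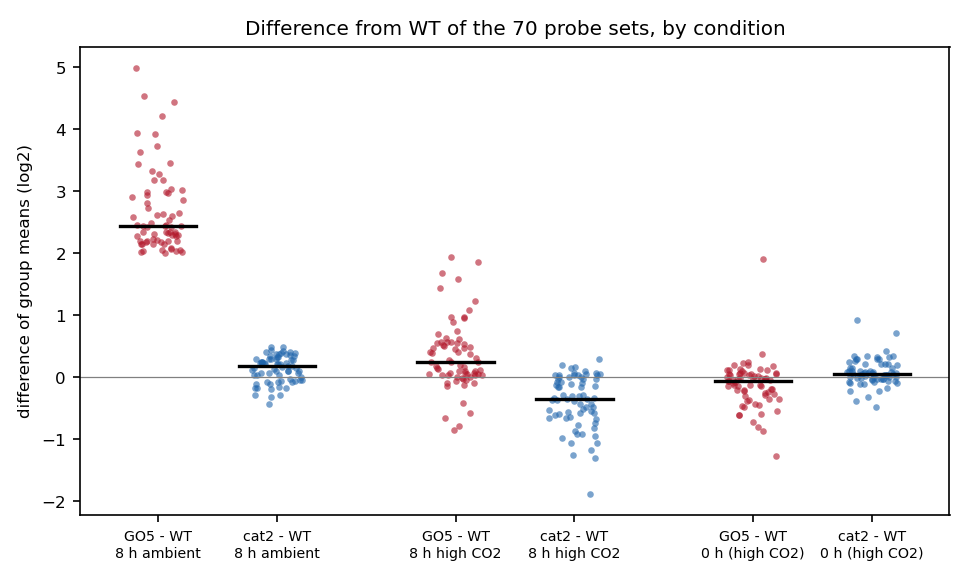
Difference of group means from WT in log2 units (y axis) for the 70 members, for GO5 and cat2 in each condition; points are members and bars are medians. The GO5 points sit at 2.00 or above at ambient CO2 by the rule, with medians of 0.24 at 8 h and -0.06 at 0 h in high CO2.

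Genes for secreted peptides stood among the larger differences. AT4G28460, AT4G37290 and AT2G23270 encode precursors of the PIP family, small peptides that plants release after microbial signals and that enhance immune responses. This grouping was made after the values were seen. AT4G37290 read 6.21, 8.18 and 7.77 on the GO5 arrays at ambient CO2, 3.70, 4.18 and 4.15 on the cat2 arrays, and 4.01, 3.74 and 3.53 on the WT arrays. Every GO5 array lay above every other array, with a GO5 minus WT difference of 3.63 ± 0.35 (n = 3 each), a 12.4-fold higher signal. Values after ± are SEs with the spread pooled over all 9 groups. The median SD of the members was 0.73 in GO5 at ambient CO2, against 0.18 to 0.37 in the other groups. The pooled SEs at ambient CO2 thus tend to understate the spread of the GO5 arrays. AT2G23270 read 6.15, 7.84 and 7.01 in GO5 and 4.17, 3.42 and 3.43 in WT, a difference of 3.33 ± 0.28. AT4G28460 read 5.39, 7.14 and 6.41 in GO5 and 3.50, 3.11 and 3.21 in WT, a difference of 3.04 ± 0.28. The cat2 means of these 3 genes differed from WT by -0.17 to 0.25, and at 8 h in high CO2 their GO5 minus WT differences were 0.01 to 0.51, with overlapping arrays.

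**Figure D2:**
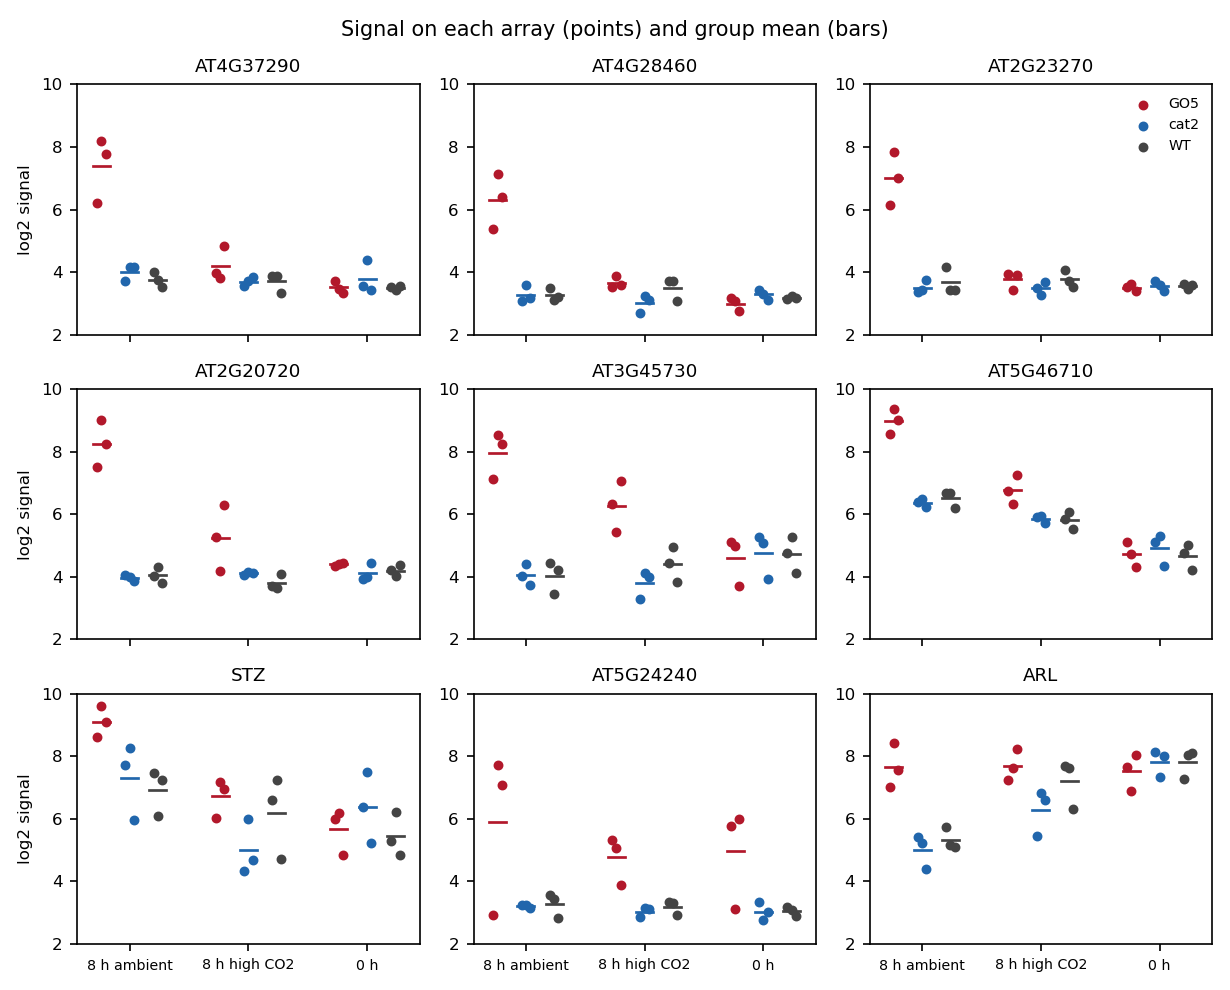
Log2 signal (y axis) of 9 members on every array, by condition and genotype; points are arrays and bars are group means. The 3 peptide precursor genes in the top row are highest on the GO5 ambient arrays, AT2G20720, AT3G45730 and AT5G46710 are also higher in GO5 than in WT at 8 h in high CO2, and ARL is lower in cat2 and WT at ambient CO2 than at high CO2.

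The 2 single-gene members with the largest differences carry no role here. AT2G20720 read 7.50, 9.0 and 8.25 in GO5, against 4.05, 4.0 and 3.88 in cat2 and 4.02, 4.31 and 3.80 in WT, and its GO5 minus WT difference was 4.21 ± 0.35 (18.5-fold). AT3G45730 read 7.14, 8.52 and 8.23 in GO5, against 4.03, 4.41 and 3.75 in cat2 and 4.42, 3.44 and 4.21 in WT, a difference of 3.94 ± 0.47 (15.4-fold). For both genes the lowest GO5 array stood more than 2 log2 units above the highest WT array. Among the other genes with no role stated, AT1G03660 was at 3.44 ± 0.39, AT1G74870 at 2.96 ± 0.34 and AT1G51920 at 2.48 ± 0.35. The largest difference of all members belonged to 263403_at, which is paired with no gene and read 7.33, 8.96 and 8.27 in GO5, 3.56, 3.88 and 3.42 in cat2, and 3.53, 2.96 and 3.10 in WT. That is a difference of 4.99 ± 0.48 from WT (31.7-fold), with no GO5 array near the others. The WT signals of 263403_at lay close to the background, so this fold is set against a weak signal. The 37 members without a single paired gene ranged from 2.03 to 4.99 with a median of 2.44, and the 10 single-gene members with no role stated ranged from 2.02 to 4.21. Among those 10 are AT4G19370 (2.44 ± 0.30), AT2G35480 (2.43 ± 0.22), AT1G59265 (2.3 ± 0.23), AT1G32920 (2.06 ± 0.45) and AT2G25735 (2.02 ± 0.60). WT levels at ambient CO2 were lowest for 260932_s_at (2.24) and AT1G71530 (2.55), near the background, and highest for 251776_at (8.68) and AT1G32920 (8.16).

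Signalling proteins made up 5 of the single-gene members. The protein kinase gene AT1G71530 read 4.60, 6.72 and 5.88 in GO5 at ambient CO2, and 2.57, 2.56 and 2.52 in WT, among the lowest WT signals of the module. Its arrays separated fully although the WT values were at the background. AT3G01830, a calmodulin-like calcium sensor, read 7.10, 8.02 and 7.86 in GO5, 6.09, 7.73 and 4.35 in cat2, and 6.65, 4.32 and 5.73 in WT. Here the cat2 arrays spread over more than 3 log2 units and reached into the GO5 range, so the mean that keeps this gene in the module (cat2 minus WT 0.49) comes from arrays that differ widely. The S-locus lectin kinase gene AT1G61360 was 2.00 ± 0.35 higher in GO5 than in WT, and AT2G32140, which encodes a protein with the TIR domain of immune receptors, was 2.22 ± 0.29 higher.

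AT5G24240, a gamma-type phosphatidylinositol 4-kinase gene, varied most between the GO5 samples of 1 condition among the genes plotted. It read 2.92, 7.72 and 7.10 in GO5 at ambient CO2, 5.33, 5.07 and 3.90 in GO5 at 8 h in high CO2, and 5.78, 3.12 and 5.99 in GO5 at 0 h. The GO5 minus WT difference was 2.64 ± 0.80 at ambient CO2 and 1.58 ± 0.80 at 8 h in high CO2. The cat2 arrays lay between 2.75 and 3.34 in all 3 conditions and the WT arrays between 2.83 and 3.57. GO5 samples were thus at the WT level or far above it within the same condition, at high CO2 as well as at ambient CO2, and the label of a difference at ambient CO2 alone does not describe this gene.

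Transcription regulators numbered 6, with GO5 minus WT differences of 2.15 to 2.46 at ambient CO2. AT5G46710, a PLATZ zinc-binding transcription factor gene, read 8.58, 9.36 and 9.0 in GO5, against 6.39, 6.49 and 6.23 in cat2 and 6.67, 6.68 and 6.21 in WT. The difference from WT was 2.46 ± 0.27, and the replicates were close together in all 3 lines. STZ (ZAT10), a zinc finger repressor of abiotic stress responses, read 8.62, 9.61 and 9.10 in GO5, 7.73, 8.26 and 5.95 in cat2, and 7.47, 6.10 and 7.24 in WT. The GO5 arrays were the highest, and cat2 and WT overlapped. The GRAS-family genes AT5G59450 and AT1G07520 were 2.44 ± 0.27 and 2.34 ± 0.26 higher in GO5 than in WT, the trihelix factor gene AT2G38250 was 2.2 ± 0.32 higher, and AT1G78410, which encodes a VQ-motif protein, a class of partners of WRKY factors, was 2.15 ± 0.60 higher.

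Secondary metabolism and transport contributed 5 genes. AT3G23550, a MATE-type carrier gene, read 8.17, 10.20 and 9.15 in GO5 at ambient CO2, 6.29, 6.64 and 5.81 in cat2, and 6.46, 5.29 and 6.70 in WT. The difference from WT was 3.03 ± 0.53, and the GO5 arrays lay above all others although the replicates of GO5 and of WT spread by more than 1 log2 unit. AT2G32030, an acetyltransferase gene of the GNAT family, was 2.99 ± 0.32 higher in GO5, and it is the direct neighbour in the gene order of AT2G32020, a gene of the same family that the rule leaves out. AT1G33030, an O-methyltransferase gene, was 2.74 ± 0.47 higher, AT1G76470, a gene related to cinnamoyl-CoA reductases, 2.27 ± 0.33 higher, and AT3G13610, the feruloyl-CoA hydroxylase gene of scopoletin synthesis, 2.04 ± 0.60 higher.

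Extracellular and growth genes numbered 3. The pectin acetylesterase gene AT3G09405 was 2.80 ± 0.34 higher in GO5 than in WT at ambient CO2. AT1G24140, a matrix metalloproteinase gene, was 2.01 ± 0.53 higher, and ARL (ARGOS-LIKE), which promotes cell expansion, was 2.34 ± 0.44 higher. AT3G12860, a gene related to the nucleolar protein NOP56 of ribosomal RNA processing, was 2.32 ± 0.27 higher. By their locus codes the 33 single-gene members lie on chromosomes 1 to 5 in numbers of 13, 8, 6, 3 and 3, and no pair of the single-gene members found in the reference table stood within 10 positions of each other in the gene order.

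The thresholds cut through a continuous range. AT1G61360 (2.00), AT1G24140 (2.01) and AT2G25735 (2.02) lay just inside the GO5 threshold, and AT1G69790 (2.00, under 2 before rounding), 267083_at (1.99) and AT5G22530 (1.97) just outside. On the cat2 side AT3G01830 (0.489), AT5G59450 (0.489) and AT3G13610 (0.443) lay just inside, and HYH (0.503), 247071_at (0.507) and AT3G54150 (0.508) just outside. Among all 186 probe sets with a GO5 minus WT difference of at least 2, another 111 had a cat2 minus WT difference of 0.5 or more.

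At ambient CO2, GO5 replicate 1 had the lowest of the 3 signals for 67 of the 70 members, and replicate 2 had the highest for 65. These arrays chose the members, and nothing is read from their order. The median member read 6.52, 7.85 and 7.49 on these arrays. The median SD within GO5 was 0.73 over the members. The highest array medians at ambient CO2 were 4.78 in cat2 and 4.54 in WT. That all GO5 medians lay above these largely follows from the rule, and nothing is read from it. Within cat2 at ambient CO2, replicate 3 was the lowest for 54 members and replicate 2 the highest for 47. Without GO5 ambient replicate 2 the rule gave 38 probe sets, without cat2 ambient replicate 3 it gave 45, and without cat2 ambient replicate 2 it gave 122.

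**Figure D3:**
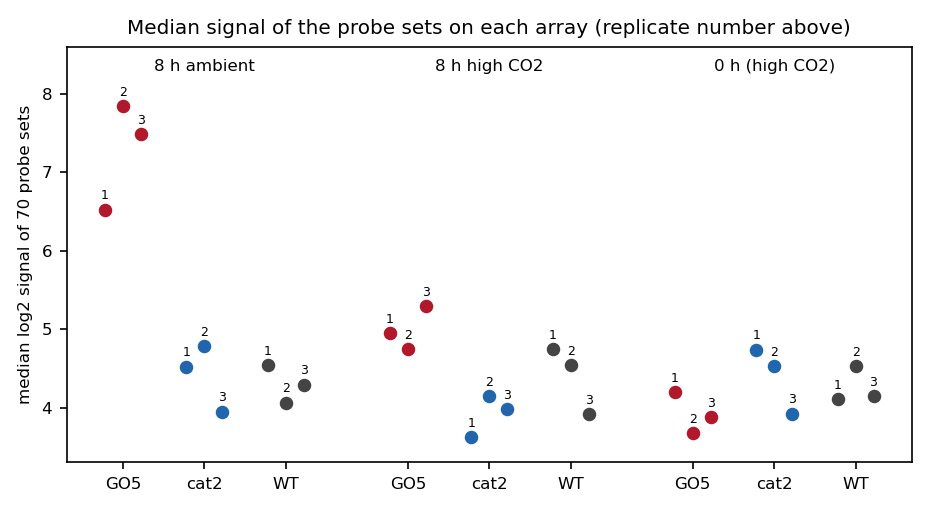
Median log2 signal of the 70 members (y axis) on each of the 27 arrays, by condition and genotype, with the replicate number above each point. The 3 GO5 ambient arrays read 6.52, 7.85 and 7.49, and all other arrays lie between 3.62 and 5.29.

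The 18 arrays at high CO2 played no part in choosing the members and allow a test. At 8 h in high CO2 the GO5 minus WT difference had a median of 0.24 over the members, with 57 of 70 above 0, against a median of -0.004 and 48.8% above 0 over all probe sets. The median member read 4.95, 4.75 and 5.29 on the GO5 arrays and 4.75, 4.54 and 3.92 on the WT arrays. The highest GO5 and the lowest WT value were thus both on replicate 3. Of the members, 0 passed in limma with Benjamini-Hochberg adjustment over all probe sets (0.0132% of all probe sets were called), and the lowest adjusted p was 0.599. At an unadjusted p under 0.05, 13 members were higher in GO5 and 0 lower, where 1.46% of all probe sets were higher. All GO5 arrays lay above all WT arrays for 16 members (5.24% of all probe sets) and below them for 0 (4.14% of all probe sets). The difference reached 1 for 7 members, or 10% of them, and for 0.176% of all probe sets. Among the 111 probe sets that were also higher in cat2 at ambient CO2, it reached 1 for 14. All GO5 arrays lay above all WT arrays for 18 of those 111 and below them for 1, so these traits are not particular to the members. The GAPDH 3′ minus 5′ difference averaged 1.83 in GO5 and 2.09 in WT in this condition (exact two-sided permutation p = 0.2). That of actin averaged 4.11 and 4.23 (exact two-sided permutation p = 0.5), and the part of RNA integrity was not tested.

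The 7 members that reached 1 were 263403_at, AT3G45730, 251282_at, AT5G24240, AT2G20720, 250024_at and 249784_at, named after their values were seen. AT3G45730 read 6.32, 5.42 and 7.07 in GO5 at 8 h in high CO2, 3.29, 4.11 and 4.0 in cat2, and 4.44, 4.94 and 3.84 in WT. Its GO5 arrays lay above all others, and the difference from WT of 1.86 ± 0.47 did not pass (limma, adjusted p = 0.715). AT2G20720 read 5.26, 4.17 and 6.29 in GO5, 4.06, 4.14 and 4.13 in cat2, and 3.72, 3.63 and 4.08 in WT, a difference of 1.43 ± 0.35 (limma, adjusted p = 0.605). 263403_at read 5.02, 4.17 and 6.86 in GO5, 2.97, 3.31 and 2.88 in cat2, and 4.27, 3.37 and 2.61 in WT. Its GO5 replicate 2 fell inside the WT range, and the difference of 1.94 ± 0.48 had an adjusted p of 0.605 in limma. In the module as a whole GO5 replicate 3 had the highest signal for 47 members and replicate 2 the lowest for 39. Without GO5 replicate 2 at 8 h in high CO2, 5 members passed in limma, where 16 of all 22746 probe sets were called, with AT2G20720 at 1.97 (adjusted p = 0.00611), 249784_at at 1.53 (0.00114), 263403_at at 2.53 (0.0361), 251282_at at 2.15 (0.0398) and 250024_at at 1.53 (0.0441). These 5 therefore depend on whether that sample is included.

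By role, the GO5 minus WT differences at 8 h in high CO2 are given as counts, and whether the roles differ was not tested. Of the 6 transcription regulators 3 had all GO5 arrays above all WT arrays, with a median difference of 0.53, against 2 of the 5 signalling genes (median 0.10), 0 of the 3 peptide genes (median 0.16), 0 of the 5 genes of secondary metabolism and transport (median -0.13) and 0 of the 3 extracellular and growth genes (median 0.13). Such separation was seen for 3 of the 10 single-gene members with no role stated (median 0.42), 7 of the 37 members without a single paired gene (median 0.25) and the RNA processing gene, beside 5.24% of all probe sets. AT5G46710 read 6.73, 6.34 and 7.24 in GO5, 5.91, 5.94 and 5.72 in cat2, and 5.85, 6.08 and 5.54 in WT. GO5 stood above both other lines, and the difference from WT of 0.95 ± 0.27 did not pass (limma, adjusted p = 1.00, unadjusted p = 0.002). The NOP56-like gene AT3G12860 had a difference of 0.88 ± 0.27 and the GRAS gene AT1G07520 one of 0.69 ± 0.26, also without passing.

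At 0 h, before any transfer, the GO5 minus WT difference had a median of -0.06 with 24 of 70 members above 0, where 54.7% of all probe sets were above 0. Of the members, 0 passed in limma (0.00879% of all probe sets were called), with 1 member higher and 0 lower at an unadjusted p under 0.05, where 0.783% of all probe sets were higher and 0.536% lower. All GO5 arrays lay above all WT arrays for 2 members (5.46% of all probe sets) and below them for 4 (3.06% of all probe sets). AT5G24240 had the largest difference at 1.90 ± 0.80, and 264886_at the lowest at -1.26 ± 0.62, both without passing (limma, adjusted p = 1.00 each). With 0 h and 8 h at high CO2 pooled, the median was 0.10 and again 0 members passed (0.00879% of all probe sets), with 12 higher and 1 lower at an unadjusted p under 0.05 (1.33% of all probe sets were higher and 1.11% lower).

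**Figure D4:**
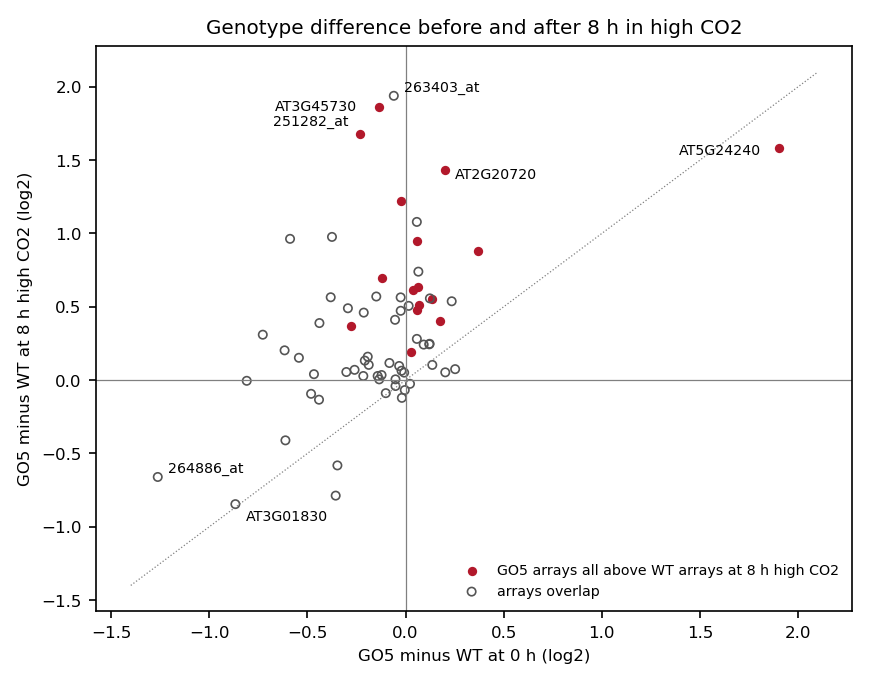
GO5 minus WT difference at 8 h in high CO2 (y axis, log2) against the same difference at 0 h (x axis, log2) for the 70 members; filled points are the 16 whose GO5 arrays all lay above the WT arrays at 8 h, and the dotted line marks equality. Most points lie above the line, with AT5G24240 alone far to the right at 1.90.

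The change of the GO5 minus WT difference between 0 h and 8 h in high CO2 was tested directly. It was positive for 61 of 70 members, with a median of 0.37, and for 47.2% of all probe sets, with a median of -0.01. No member passed in limma, nor did any other probe set (0% called), and 9 members were higher and 0 lower at an unadjusted p under 0.05 (0.659% of all probe sets were higher). Among the 111 probe sets that were also higher in cat2 at ambient CO2, the GO5 minus WT difference at 8 h in high CO2 had a median of 0.14, and its change from 0 h a median of 0.54. The 8 h and 0 h samples differ both in time of day and in hours since the start, and these cannot be told apart.

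In cat2 the median member was lower than in WT at 8 h in high CO2. The cat2 minus WT difference, which shares its WT arrays with the GO5 comparison, had a median of -0.35 and was -1 or lower for 6 members (0.906% of all probe sets), 4 of them STZ (-1.18), AT3G01830 (-1.88), AT1G78410 (-1.25) and AT1G24140 (-1.05). All GO5 arrays lay above all cat2 arrays for 46 members (7.03% of all probe sets) and below for 0 (9.39% of all probe sets). The 111 probe sets that were also higher in cat2 at ambient CO2 went the same way at 8 h in high CO2. Their cat2 minus WT median was -0.46, and their GO5 minus cat2 median was 0.71 (0.65 over the members). All GO5 arrays lay above all cat2 arrays for 39 of them and below for 1. STZ read 6.03, 7.17 and 6.94 in GO5, 4.33, 5.99 and 4.69 in cat2, and 6.59, 7.25 and 4.70 in WT. WT reached into the range of both lines, with replicate 3 at the cat2 level, and this WT replicate had the lowest of the 3 WT signals for 52 members. With 0 h and 8 h pooled, GO5 minus cat2 was above 0 for 65 of 70 members, with a median of 0.19, and for 46.0% of all probe sets. Here 0 members passed in limma (0.00879% of all probe sets), and 10 were higher and 0 lower at an unadjusted p under 0.05, where 0.712% of all probe sets were higher and 1.13% lower. For cat2 minus WT the pooled median was -0.13, 0 members passed in limma (0.0132% of all probe sets were called, 0.00879% higher and 0.00440% lower), and 0 members were higher and 1 lower at an unadjusted p under 0.05, where 1.26% of all probe sets were higher and 0.756% lower.

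Between 0 h and 8 h in constant high CO2 some members changed in every line. In GO5, 13 members passed in limma, 12 higher at 8 h and 1 lower (7.00% and 6.87% of all probe sets were called higher and lower, 13.9% in all). In cat2, 8 passed, 1 higher and 7 lower (6.62% and 5.92% of all probe sets, 12.5% in all), so the total in cat2 was near the share of all probe sets. In WT, 4 passed, 2 higher and 2 lower (6.88% and 6.50%, 13.4% in all), which is a smaller share of the members than of all probe sets. The median changes over the members were 0.41 in GO5, -0.25 in cat2 and 0.11 in WT. Over the 111 probe sets that were also higher in cat2 at ambient CO2 they were 0.86, -0.21 and 0.28. These counts moved with single arrays: 13 in GO5 became 7 without 8 h replicate 3, 8 without 8 h replicate 1 and 8 without 0 h replicate 3. The 8 in cat2 became 2 without 8 h replicate 1, 3 without 8 h replicate 2 or 0 h replicate 1, 4 without 0 h replicate 2 and 5 without 8 h replicate 3. The 4 in WT became 1 without 8 h replicate 2 or 0 h replicate 3 and 2 without 8 h or 0 h replicate 1. The WT and GO5 changes were compared above, and no difference between them passed.

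AT5G46710 rose in all 3 lines. It read 6.73, 6.34 and 7.24 at 8 h in GO5 kept at high CO2 and 5.11, 4.74 and 4.32 at 0 h, with no overlap. The change was 2.05 ± 0.27 in GO5 (limma, adjusted p = 1.26e-05), 0.95 ± 0.27 in cat2 (adjusted p = 0.022) and 1.16 ± 0.27 in WT (adjusted p = 0.00508). The GO5 and WT calls held whichever array was left out, and the cat2 call was lost without 8 h replicate 1 (0.92), 8 h replicate 2 (0.90) or 0 h replicate 3 (0.66). AT1G03660 rose by 1.72 ± 0.39 in GO5 (limma, adjusted p = 0.00343), 263403_at by 2.23 ± 0.48 (adjusted p = 0.00227) and 248794_at by 1.51 ± 0.27 (adjusted p = 0.00047), again whichever array was left out. AT3G45730 (1.68 ± 0.47), AT1G78410 (1.96 ± 0.60), AT1G61360 (1.14 ± 0.35) and the GRAS gene AT1G07520 (0.91 ± 0.26) passed in GO5 with adjusted p-values of 0.0188 to 0.0323 in limma, and 3 or 4 single arrays were each enough to end these calls. Without 0 h replicate 3 all 4 calls were lost, with changes of 1.23, 1.74, 1.04 and 0.84 in the same order. Without 8 h replicate 2 those of AT1G78410 (1.68), AT1G61360 (1.14) and AT1G07520 (0.91) were lost, and without 8 h replicate 3 those of AT3G45730 (1.28), AT1G61360 (1.00) and AT1G07520 (0.78). Without 8 h replicate 1 those of AT3G45730 (1.65) and AT1G78410 (2.02) were lost, and without 0 h replicate 2 those of AT1G78410 (1.82) and AT1G61360 (1.03). The AT3G45730 call was also lost with only the groups compared (adjusted p = 0.0597).

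A probe set with no paired gene, 253824_at, fell in all 3 lines, with changes of -1.27 ± 0.37 in GO5, -1.34 ± 0.37 in cat2 and -1.42 ± 0.37 in WT (limma, adjusted p = 0.0233, 0.0184 and 0.0123). Single arrays ended each call: 0 h replicate 3 in every line (-0.88 in GO5, -0.94 in cat2 and -1.04 in WT without it), 8 h replicate 2 in every line (-1.15, -1.29 and -1.28) and 8 h replicate 1 in GO5 (-1.15). The GO5 call was also lost with only the groups compared (adjusted p = 0.0511). In cat2, ARL fell by 1.54 ± 0.44 (limma, adjusted p = 0.0226), reading 5.44, 6.82 and 6.61 at 8 h in high CO2 and 8.13, 7.34 and 8.01 at 0 h. The ARL change was 0.18 ± 0.44 in GO5 (adjusted p = 0.868) and -0.61 ± 0.44 in WT (adjusted p = 0.448), the GO5 against WT difference in this change did not pass in the test above, and comparisons with cat2 were not tested. The call for ARL was lost without 8 h replicate 1 (-1.11), 0 h replicate 1 (-1.39) or 0 h replicate 3 (-1.45), and that for 263096_at, which fell by 2.04 ± 0.47 in cat2 (limma, adjusted p = 0.00466), held whichever array was left out. The other cat2 calls were all lower at 8 h, 261449_at (-1.55), 260037_at (-1.54), 251745_at (-1.42) and 266606_at (-0.68), with adjusted p-values of 0.0369 to 0.0498, and each was lost without 0 h replicate 1, 0 h replicate 2 or 8 h replicate 1 (-1.48, -1.0, -1.21 and -0.71 without the last). Without 8 h replicate 2 all but 251745_at were lost, and without 8 h replicate 3 all but 260037_at. With only the arrays of the groups compared, the cat2 calls of 260037_at (adjusted p = 0.138) and 251745_at (0.082) were lost, and that of 260037_at also after quantile normalization (0.0618), with trended and robust variances (0.0615) and in the fit of the 18 high CO2 arrays (0.0627). In WT, 248794_at rose by 0.87 ± 0.27 (limma, adjusted p = 0.0385) and 266606_at fell by 0.71 ± 0.21 (adjusted p = 0.0276), and both calls were lost without 8 h replicate 1, 8 h replicate 2, 0 h replicate 1 (0.70 and -0.67) or 0 h replicate 3. The 248794_at call in WT was also lost after quantile normalization (adjusted p = 0.0668) and median centring (adjusted p = 0.0628).

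Setting ambient against high CO2 at 8 h within each line separates members that were higher in GO5 from those that were lower elsewhere. These differences hold the ambient arrays that chose the members and carry no test. The ambient minus high CO2 difference had a median of 2.16 in GO5, 0.28 in cat2 and -0.08 in WT. For 64 members GO5 was at least 1 higher at ambient CO2 and WT lay within 1 of its high CO2 level. AT1G59265 was at least 1 higher at ambient CO2 in both lines, 3.23 in GO5 and 1.05 in WT, on a probe set of a type that can match several transcripts.

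For 3 members the GO5 means at ambient and high CO2 lay within 0.29 of each other, and WT was at least 1 lower at ambient CO2. ARL read 7.03, 8.42 and 7.57 in GO5 at ambient CO2 and 7.24, 7.62 and 8.25 at 8 h in high CO2, with overlapping arrays. In WT the same gene read 5.74, 5.16 and 5.11 at ambient CO2 and 7.68, 7.62 and 6.32 at high CO2, and in cat2 it read 5.42, 5.23 and 4.41 at ambient CO2 and 5.44, 6.82 and 6.61 at high CO2. WT ambient values were all below WT high CO2 values. The other two were 251248_at, with differences of 0.29 in GO5 and -2.32 in WT, and 260037_at, with -0.08 in GO5 and -1.86 in WT. For ARL and these 2 probe sets the label of a raised level in GO5 does not describe the change: the difference from WT at ambient CO2 lies with the lower WT level. For 263096_at and 247573_at, GO5 was at least 1 higher at ambient CO2 and WT at least 1 lower.

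**Figure D5:**
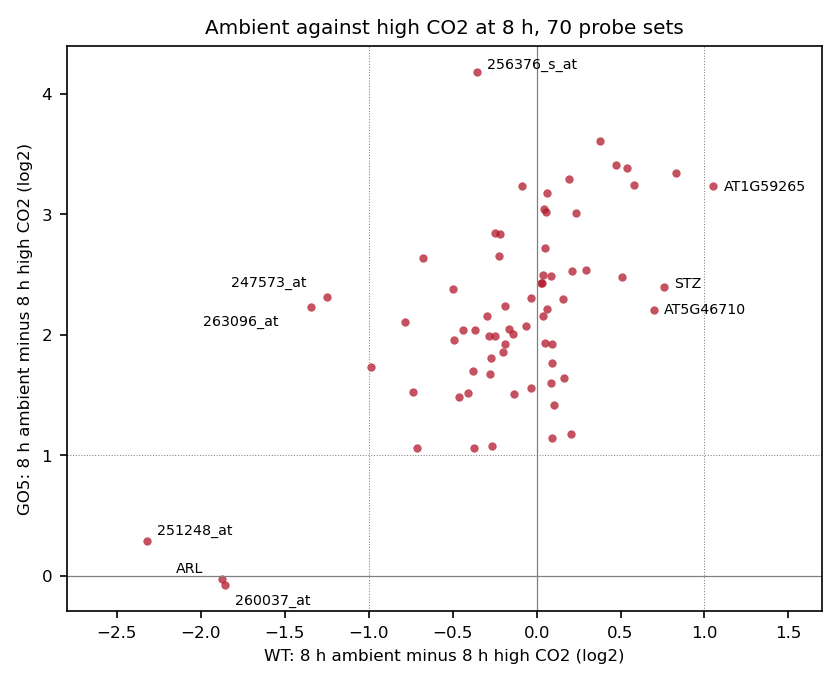
Ambient minus high CO2 difference at 8 h in GO5 (y axis, log2) against WT (x axis, log2) for the 70 members; dotted lines mark a difference of 1 in either direction. Most members lie near 0 in WT and above 1 in GO5, and ARL, 251248_at and 260037_at lie near 0 in GO5 and below -1 in WT.

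A low cat2 minus WT difference at ambient CO2 did not always go with the same cat2 level at both CO2 concentrations. In cat2, 7 members were at least 1 higher at ambient CO2 than at 8 h in high CO2, with AT3G01830 at 2.85, STZ at 2.31, AT1G24140 at 1.79 and AT1G78410 at 1.24. For these 4 genes the cat2 minus WT difference was -1.05 or lower at 8 h in high CO2 and between -0.07 and 0.49 at ambient CO2. Their cat2 arrays at ambient CO2 also differed widely, with replicate 3 the lowest for each (4.35 for AT3G01830, 5.95 for STZ, 4.64 for AT1G24140 and 4.03 for AT1G78410). The other 63 members differed by less than 1 or were lower in cat2 at ambient CO2.

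Other genes of stress pathways were set beside the module from lists chosen with earlier results of these data known, so their direction is no independent evidence. GO5 and WT at ambient CO2 were compared in limma, where 8.59% of all probe sets were called higher and 9.85% lower. All 10 measured genes of the mitochondrial retrograde list, targets that answer to impaired mitochondria, rose with a median of 4.02, among them the MATE carrier gene AT2G04050 (6.95 ± 0.58) and the small heat shock protein gene AT5G51440 (4.69 ± 0.73, adjusted p = 0.00018). Of these 10, 5 are named as exceptions in the rule (AT2G04050, AT2G04070, NDB4, AT2G21640 and AT2G32020), and 0 are members. AT2G04050, AT2G04070, NDB4 and AT2G32020 met both thresholds of the rule on these same values, so their rise is no test. AT2G21640 did not meet the cat2 threshold, with 7.49 in cat2 and 6.52 in WT. Of the other genes of this list, AT5G51440 read 7.28 in cat2 and 3.41 in WT at ambient CO2, and AT2G41730 read 7.12 and 5.28. In the same order, AT5G43450 read 8.26 and 7.19, NDB2 7.17 and 6.18, and AT5G09570 3.60 and 3.70. A rise in GO5 was thus not particular to GO5 for every gene of the list. Of the 6 other measured singlet oxygen markers, genes known to answer to singlet oxygen in chloroplasts, 4 rose (list median 2.74). AT3G28580 was among them, which the rule names but which did not meet the cat2 threshold, with 3.94 in cat2 and 3.24 in WT. Of the others that rose, AT1G10585 read 6.35 in cat2 and 4.37 in WT, AT1G19020 7.53 and 6.85, and AT1G57630 7.40 and 6.54. In the indolic and camalexin list 3 of the 5 genes rose (list median 2.32), with AT1G26380 at 3.97 ± 0.63 (adjusted p = 0.00021). Of these 3, AT1G26380 read 5.36 in cat2 and 4.27 in WT, AT1G26410 3.51 and 2.76, and AT1G26420 5.02 and 4.29. The calls of the singlet oxygen marker AT1G57630 and the indolic gene AT1G26420 were lost without GO5 ambient replicate 2 (2.14 and 2.68) or WT ambient replicate 2 (1.80 and 2.34). In a fit of only the arrays of the groups compared, 1 gene of each of these last 2 lists passed. In the mitochondrial retrograde list that fit lost the calls of NDB2 (limma, adjusted p = 0.105) and AT5G09570 (0.108). With dim probe sets left out 6 of the 10 mitochondrial retrograde genes could be tested and all 6 passed. The WT signal of AT2G04050 was near the background at ambient CO2 (2.87), so its log2 difference is set against a weak signal.

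In the remaining lists fewer genes passed between GO5 and WT at ambient CO2. Among 7 calcium sensor genes that are no members, CML37 alone rose (1.45 ± 0.50, limma, adjusted p = 0.046). Of 3 WRKY genes WRKY6 rose (1.95 ± 0.50, adjusted p = 0.00987), and WRKY53 was 1.39 ± 0.61 higher without passing (adjusted p = 0.123). Of 10 glutathione transferase genes GSTU25 rose (3.32 ± 0.49, adjusted p = 0.000109), against a WT signal near the background (2.48), and GSTU18 fell by 0.64 ± 0.21 (adjusted p = 0.0331). In the fit of only the arrays of the groups compared, 0 genes of the calcium sensor, WRKY and glutathione transferase lists passed. The CML37 call was also lost with trended and robust variances (adjusted p = 0.0578) and without GO5 ambient replicate 1 (1.53) or 2 (1.1) or WT ambient replicate 1 (1.36) or 2 (1.28), and the WRKY6 call without GO5 ambient replicate 2 (1.68). The GSTU18 call was lost without GO5 ambient replicate 2 (-0.33) and without WT ambient replicate 1 (-0.55) or 3 (-0.60). Of 7 heat shock protein genes AT5G51440, also counted above, was the one that rose. In the lists for oxylipin-type detoxification (4 genes), salicylate and systemic resistance (2 genes), zinc finger and heat shock factors (1 gene beside STZ) and photosynthesis antenna and RuBisCO (1 gene), 0 passed. No gene of the lists for NAC factors, ERF factors, ethylene synthesis or jasmonate synthesis was paired with a probe set of its own. At 8 h in high CO2, AT2G04050 was the one gene of these lists that rose in GO5 (3.94 ± 0.58, limma, adjusted p = 0.00682), again against a WT signal near the background (2.86).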

How the data were processed

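RNA of 2 pooled rosettes per sample was measured on 27 arrays in 9 groups of 3. The deposited values are log2 signals per probe set. The submitters' processing notes name RMA, GCRMA, affy and R 2.15.0, with no statement of which method was used. Signals run from 1.61 to 13.59, and 21.2% lie between 2 and 3, near the background. The number of arrays limits the precision. Without 64 control probe sets, 22746 remained: 13513 paired with 1 gene, 503 with several and 8730 with none. All columns were matched to samples by label.

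The members and gene lists were chosen with earlier results of these data known. Named are the 15 single-gene members with the largest ambient difference, up to 8 called members per contrast and direction, list genes, the lowest and highest WT levels and those nearest the thresholds; naming by annotated family was not possible. Further members with a role or a count of a few are named after their values were seen. Contrasts came from limma 3.58.1 (R 4.3.3), with a mean for each of the 9 groups and all arrays in the model. SE values are from that model, in which all groups share 1 estimate of the spread per probe set. Two-sided p-values were adjusted by Benjamini-Hochberg over all probe sets within a contrast, with a threshold of 0.05. A fold is 2 to the power of the log2 difference. The ambient contrast was fitted for all probe sets, and its p-values are given only for genes outside the module. Control probe sets were compared by exact two-sided permutation tests (scipy 1.17.1). Alternatives were quantile normalization, median centring, trended and robust variances, a filter on dim probe sets (percentile 40 of mean signal), fits of fewer arrays, a replicate block and leaving out single arrays. The labels do not say that replicates with the same number were handled together. From the data, deviations from the group means of same-numbered GO5 and cat2 arrays correlated over 0.1 in every pair at 0 h (0.60 to 0.78) and at 8 h in high CO2 (0.43 to 0.55). The numbers may therefore pair these lines within a condition, which the labels do not state. Between WT and either line the deviations did not correlate over 0.1 in every pair. Promoter motifs and sequences were not analysed here.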

Additional observations from a re-analysis of the deposited data

How the results depend on the processing

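The rule gave 70 members as deposited, 71 after quantile normalization (65 shared) and 68 after median centring (61 shared), and 38 to 122 with 1 ambient array left out. Without cat2 ambient replicate 3 it gave 45. Members called for the day change in GO5 were 13, and 21 in the fit of the 18 high CO2 arrays alone, 7 to 12 with 1 array left out (8 without GO5 8 h high CO2 replicate 1, 8 without GO5 0 h replicate 3, 7 without GO5 8 h high CO2 replicate 3), and 11 to 19 under the other alternatives. In WT they were 4, and 7 in the fit of the 18 arrays, and 1 to 5 with 1 array left out (1 without WT 0 h replicate 3 or WT 8 h high CO2 replicate 2, 2 without WT 0 h or 8 h high CO2 replicate 1). In cat2 they were 8, 2 to 6 with 1 array left out (2 without 8 h high CO2 replicate 1, 3 without 0 h replicate 1 or 8 h high CO2 replicate 2, 4 without 0 h replicate 2, 5 without 8 h high CO2 replicate 3), and up to 11 otherwise. A fit with 1 array left out assumes that the remaining 2 vary like the other groups. The contrasts with 0 members called stayed at 0 under every alternative except without GO5 8 h high CO2 replicate 2, which gave 5 for GO5 minus WT at 8 h, 1 for it pooled with 0 h and 1 for GO5 minus cat2, pooled (249784_at in both). The replicate block gave 15 calls in GO5, 9 in cat2 and 4 in WT and changed no zero count. Over all high CO2 groups, deviations of same-numbered arrays correlated at -0.40 to 0.80, 22 of 45 pairs over 0.1, and 7 of 18 arrays correlated best with their own number. For GO5 against cat2, where the numbers may pair the samples within a condition, a block of number within condition, added after seeing the data, left 0 members called, with 2 of all probe sets called. Of 271 refits of the 21 named calls 209 kept the call, 62 lost it and 0 reversed. With dim probe sets left out, 38 of the 70 members could be tested, so weak signals limit what can be seen. With that filter 6 of the 10 mitochondrial retrograde genes were called in GO5 minus WT at ambient CO2. With only the groups compared the calls of NDB2 and AT5G09570 were lost from that list, and 1 of the indolic and camalexin genes was called. These list alternatives were chosen after seeing the data. Causes of these differences were not tested.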
